A study of Mus musculus with 78 samples.

Results

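The striatal RNA of C57BL/6J mice injected with methamphetamine was compared with that of mice injected with saline on treatment day 1, with 3 arrays in each group. These 6 arrays, of 78 in the study, are all those whose labels name treatment day 1 and 1 of these agents. Injections were intraperitoneal, 2 a day, and continued for up to 12 days in increasing doses. Methamphetamine rose from a first dose of 2 mg/kg to a last dose of 8 mg/kg, so mice killed after day 1 stood at the start of the escalation. For comparison, 3 arrays of heroin on day 1 (first dose 10 mg/kg, last dose 40 mg/kg) and the methamphetamine and saline arrays of treatment days 3, 6 and 12 were used. The time between the last injection and decapitation, the sex and age of the mice and the way the striatum was dissected are not given in the sources used here. Nothing beyond the replicate numbers says that replicates are separate animals, so p-values measure only the spread between these samples.

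The striatum is built mostly of medium spiny neurons, inhibitory projection neurons that receive dopamine from the midbrain. Those of the direct pathway carry the dopamine receptor Drd1 and the peptides Tac1 and Pdyn, and those of the indirect pathway carry Drd2, Adora2a and Penk. Methamphetamine enters dopamine terminals and releases dopamine onto both kinds. The dentate gyrus and the CA fields belong to the hippocampus, a separate structure above the thalamus, and their granule and pyramidal cells are glutamatergic neurons with marker genes of their own.

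All values below are log2 of quantile-normalized probe signals. The 6 arrays had median signals between 100.3 and 150.1 intensity units, and their number limits the precision. Changes are the log2 difference of methamphetamine minus saline ± SE from 1 limma model of all 78 arrays, with a term for each of the 13 slides and a spread pooled over the 25 groups. Adjusted p-values are over the 12371 genes that passed a filter on low signal. No slide held arrays of both groups, replicate 1 of each came from slides of one number series and replicates 2 and 3 from slides of another, and every day 1 array was the first on its slide.

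Some arrays stood apart from the rest. On methamphetamine replicate 3, 211 genes lay at least 1 log2 unit below the saline mean, against 37 on replicate 1 and 12 on replicate 2. That array was lower than each of the 77 others for all 13 medium spiny neuron genes tested, although it is labelled striatum. Saline replicates 2 and 3 carried high levels of genes of the olfactory bulb. The authors' deposited processed table also differs from their signals here: its column for methamphetamine day 1 replicate 3 equals the mean of replicates 1 and 2 for all 45281 probes, within 1e-08, and no other column does so. In that table C1ql2 stood at 9.07 and 8.67 on methamphetamine replicates 1 and 2 and between 8.66 and 8.77 on the saline arrays, so it does not hold the differences described below. Every result below rests on the signal table, and which of the deposited tables is right for these arrays was not tested.

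In the signals, genes of the hippocampus were higher and genes of striatal medium spiny neurons were lower in the methamphetamine group. Of 12371 genes, 894 (7.23%) passed the threshold, 416 (3.36%) higher and 478 (3.86%) lower, and the median change over all genes was -0.01. Among these genes 58 rose by more than 1 log2 unit and 57 fell by more than 1. With each array centred on its median in place of quantile normalization, 395 were higher and 298 lower. Of the 416 higher genes, 178 lay above the 75 arrays of all other groups on all 3 methamphetamine arrays, and of the 478 lower genes 78 lay below them. Over all genes tested, 230 and 110 did so. The filter on low signal was passed only through the methamphetamine day 1 arrays by 48 genes. Among them were 23 of the 416 higher genes and none of the 478 lower genes. The share of those 23 genes in the 416, and any share in the 178, was favoured by the filter. Replicate 3 carried the highest methamphetamine value in 330 of the 416 higher genes and the lowest in 418 of the 478 lower genes, against 4416 and 4269 of all genes. Without replicate 3, 230 genes passed, 145 higher and 85 lower, and 229 of them had passed with it in the same direction. A fit of the 6 arrays alone, with the spread taken from them, gave 96 genes, 85 higher and 11 lower.

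Among dentate gyrus granule cell genes, 5 of the 7 tested rose and 1 fell, against 7.23% of all genes past the threshold in either direction, and the median change was 0.93 against -0.01 over all genes. Lct passed the signal filter only through the methamphetamine arrays, and without it 4 of 6 rose. C1ql2, on chromosome 1, encodes a secreted C1q-like protein of mossy fibre synapses. Its levels were 12.27, 11.77 and 12.86 on the methamphetamine arrays and 8.42, 8.32 and 8.29 on the saline arrays. All 3 methamphetamine arrays lay far above the saline arrays, and above the range of 7.70 to 9.29 over the other 75 arrays. The change was 3.66 ± 0.296 (adjusted p = 3.89e-13), 12.6-fold, and no called gene rose by more. Without replicate 3, 5 of the 7 genes still rose and none fell, and the fit of the 6 arrays alone called 3 higher. Both counts are over all 7 genes, Lct included. Within the slides of the first number series (1 array against 1) C1ql2 differed by 3.85, and within those of the second (2 against 2) by 4.01. The corresponding differences were 1.71 and 2.18 for Fibcd1 and 2.74 and 3.04 for Spink8, hippocampal genes described next.

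Upstream sequences are shown for C1ql2, which rose most, and for Rgs9, which fell most among the medium spiny neuron genes, so that the promoters of a gene from each pattern can be read. Each is the 250 bases before the gene's RefSeq start in GRCm38.p6, chr1:120340332-120340581 on the plus strand for C1ql2 and chr11:109298182-109298431 on the minus strand for Rgs9. Capitals mark E-boxes, CANNTG, the sequence that basic helix-loop-helix factors bind, which reads the same pattern on both strands. C1ql2 holds 1 and Rgs9 holds 4, and neither holds the cyclic AMP response element TGACGTCA or its shorter forms TGACG and CGTCA. Of 32841 promoter windows of this length, 66.2% hold an E-box and 17.8% a shorter form of the response element. These matches are a description of letters in the window.
C1ql2: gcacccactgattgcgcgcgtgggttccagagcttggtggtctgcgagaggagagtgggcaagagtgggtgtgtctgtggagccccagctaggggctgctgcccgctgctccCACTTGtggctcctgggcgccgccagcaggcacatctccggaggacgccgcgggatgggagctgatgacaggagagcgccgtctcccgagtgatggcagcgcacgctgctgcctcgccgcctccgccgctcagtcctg
Rgs9: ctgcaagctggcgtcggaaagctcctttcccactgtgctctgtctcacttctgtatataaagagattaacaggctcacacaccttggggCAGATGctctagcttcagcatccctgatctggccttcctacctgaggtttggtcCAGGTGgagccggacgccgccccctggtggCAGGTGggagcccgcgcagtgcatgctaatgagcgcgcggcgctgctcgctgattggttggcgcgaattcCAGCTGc

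Lct, the lactase gene, also on chromosome 1 and a granule cell marker, was at 8.93, 8.40 and 9.73 on the methamphetamine arrays and 6.81, 6.64 and 6.80 on the saline arrays. The groups did not overlap, but the saline values lay below the median of their arrays, where signals are close to background. Set against the median signal of the saline arrays in place of its own low values, Lct was at least 4.17-fold higher, a bound that was not tested. Limma's fitted change of 2.42 (adjusted p = 5.62e-14) uses the low saline values, for a gene that passed the filter only through the methamphetamine arrays. Prox1, the homeobox gene of granule cell identity, was at 9.12, 8.63 and 9.42 against 8.39, 7.94 and 7.82. All 3 methamphetamine values lay above all saline values, and Prox1 rose by 0.93 ± 0.184 (adjusted p = 0.000611). The calcium-permeable channel gene Trpc6 rose by 0.97 ± 0.135, and C1ql3, a relative of C1ql2, by 0.81 ± 0.166. Gsg1l, which encodes an AMPA receptor accessory protein, moved the other way, at 11.01, 10.84 and 10.25 against 11.48, 11.29 and 11.27, and fell by 0.47 ± 0.137 (adjusted p = 0.024). Without replicate 3 its change was -0.23 (adjusted p = 0.462). The transcription factor gene Glis3 was at 0.27 and did not pass, Tdo2 did not pass the signal filter, and the annotation used here pairs no probe with Dsp. Replicate 3 was highest and replicate 2 lowest in 6 of the 7 genes.

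**Figure D1:**
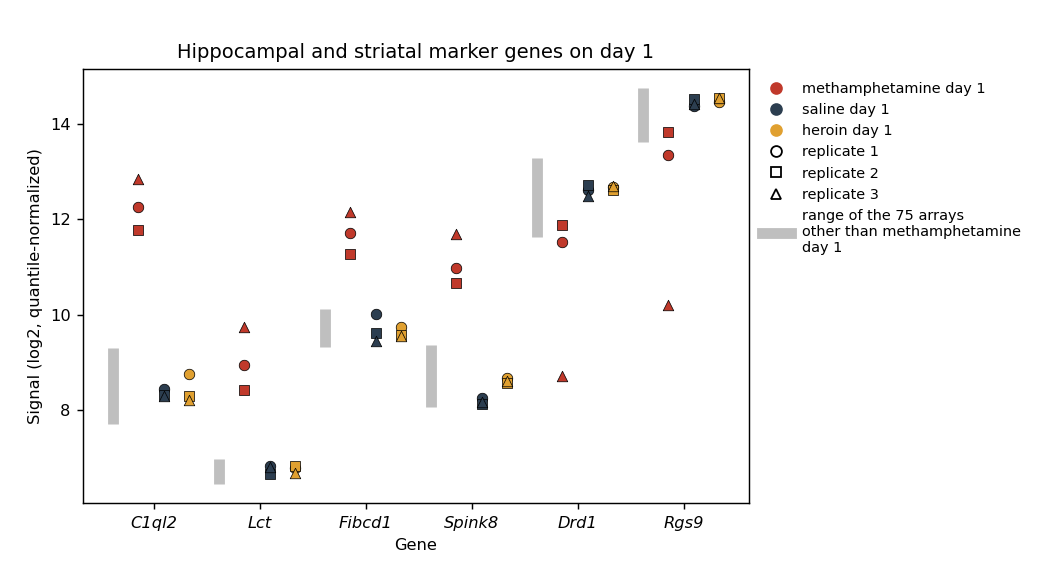
Log2 quantile-normalized signal of 6 marker genes on each day 1 array, with replicates 1, 2 and 3 as circles, squares and triangles and the range of the 75 arrays outside the methamphetamine day 1 group as a grey bar. The 4 hippocampal genes C1ql2, Lct, Fibcd1 and Spink8 lie above the grey bar on all 3 methamphetamine arrays, while Drd1 and Rgs9 lie far below it on replicate 3, just below it on replicate 1 and inside its lower end on replicate 2.

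Hippocampal pyramidal cell genes showed the same direction. Of 12 tested, 6 rose and none fell, against 3.36% higher and 3.86% lower over all genes, with a median of 0.51. Without Iyd, which passed the filter only through the methamphetamine arrays, 5 of 11 rose. Spink8, a Kazal-type protease inhibitor gene on chromosome 9, was at 10.98, 10.66 and 11.70 on the methamphetamine arrays and 8.24, 8.13 and 8.17 on the saline arrays. The groups were separate, and the 75 other arrays reached at most 9.35. Spink8 rose by 2.83 ± 0.208 (adjusted p = 5.39e-14). Fibcd1, a chitin-binding receptor gene on chromosome 2 and a marker of CA1, was at 11.72, 11.27 and 12.15 against 10.01, 9.62 and 9.45. Again all 3 methamphetamine arrays lay above all others, whose highest value was 10.11, and the gene rose by 2.02 ± 0.153 (adjusted p = 5.78e-14).

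The calcium-binding protein gene Cabp7 rose by 1.32 ± 0.151, the transcription factor gene Zbtb20 by 0.62 ± 0.129 and the kainate receptor gene Grik4 by 0.59 ± 0.159. The deiodinase gene Iyd lay below the array median on all 3 saline arrays, and against that median it was at least 1.33-fold higher. Grik4 and Iyd no longer passed without replicate 3. Bok, Pou3f1, Man1a, Rgs14 and Amigo2 had changes of 0.54, 0.27, 0.09, 0.22 and 0.31 that did not pass, and Tyro3 was at -0.33. Map3k15 had no probe paired with it. The list mean, set against the saline day 1 mean, was 0.72, 0.53 and 0.99 on replicates 1, 2 and 3 and between -0.07 and 0.18 on the other 75 arrays. For the granule cell list it was 1.26, 0.97 and 1.59 against a range of -0.19 to 0.26. All 3 methamphetamine arrays lay above every other array for both lists, with replicate 3 highest and replicate 2 lowest. Lct and Iyd are part of these means and of the counts that follow. Both passed the filter only through the methamphetamine arrays, so their share of the separation was favoured by the filter. Without replicate 3, 4 of the 12 pyramidal cell genes rose, and in the fit of the 6 arrays alone 3 did. With the saline arrays of days 3, 6 and 12 as controls, 8 pyramidal cell genes and 6 granule cell genes rose and 1 of each fell.

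The other genes with the largest increases were above the 75 remaining arrays on all 3 methamphetamine arrays as well. Grp, which encodes gastrin-releasing peptide, was at 9.87, 9.58 and 10.56 against 7.03, 7.34 and 7.45, and rose by 2.62 ± 0.339 (adjusted p = 3.24e-07). The anion exchanger gene Slc26a4 was at 10.10, 9.84 and 10.92 against 7.81, 7.65 and 7.80, and rose by 2.32 ± 0.246. In both genes replicate 3 was highest and replicate 2 lowest. The secreted olfactomedin-like gene Olfml2b rose by 1.96 ± 0.156 and Klk8, the protease neuropsin, by 1.95 ± 0.179. Then came Sertm1 at 1.78, the protocadherin gene Pcdh20 at 1.75, the BMP antagonist gene Chrd at 1.69, Tnfrsf25 at 1.68, the desmosomal gene Pkp2 at 1.66, Il16 at 1.60 and the postsynaptic scaffold gene Tanc1 at 1.46. Another probe of Tnfrsf25 had a difference of means of 0.18, and the other probes of Il16 did not pass the signal filter. Without replicate 3 all 11 of these genes still passed, and Tanc1 missed the threshold in the fit of the 6 arrays alone (adjusted p = 0.084).

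Cortical excitatory neurons share several genes with the hippocampus, and 1 of 14 tested passed, against 7.23% of all genes in either direction. Fezf2, a transcription factor gene of deep-layer projection neurons, was at 11.31, 11.02 and 11.68 against 9.90, 9.43 and 9.64, above the range of all other arrays, and rose by 1.38 ± 0.394 (adjusted p = 0.021). Without replicate 3 it did not pass (adjusted p = 0.194). Neurod2, a basic helix-loop-helix factor gene of cortical and hippocampal neurons, was at 11.04, 10.56 and 11.58 against 9.27, 8.76 and 9.29. It was also above all 75 other arrays, but its change of 1.50 ± 0.519 did not pass (adjusted p = 0.0689). Slc17a7, the main vesicular glutamate transporter gene of cortex and hippocampus, was at 12.36, 11.80 and 12.25 against 11.18, 10.72 and 11.48. The groups did not overlap, yet the fitted change was 0.25 ± 0.670 (adjusted p = 0.89) beside a difference of means of 1.01, and the other 75 arrays ran from 8.98 to 12.29. In all, 7 of the 14 genes had all 3 methamphetamine arrays above all 3 saline arrays, against 10.4% of all genes. In 1 gene they lay below, against 12.1%. Lamp5, Ccn2, Mef2c, Rorb, Tbr1 and Cux2 were at -0.38, -0.38, -0.21, -0.12, -0.04 and -0.02 and did not pass. Emx1, Nr4a2, Sv2b, Etv1 and Rasgrf2 were at 0.51, 0.44, 0.43, 0.37 and 0.25 and did not pass either. The median change was 0.25. The list mean was 0.58, 0.41 and 0.61, with the other arrays between -0.72 and 0.49.

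Genes common to both classes of medium spiny neurons were lower. Of 13 tested, 9 fell and none rose, against 3.86% lower and 3.36% higher over all genes, with a median of -1.06. All 13 had the 3 methamphetamine arrays below the 3 saline arrays, against 12.1% of all genes. The size of the fall came mostly from replicate 3. The list mean was -0.73, -0.44 and -2.34 on replicates 1, 2 and 3, and the other 75 arrays lay between -0.61 and 0.30. Replicate 1 was therefore just outside that range and replicate 2 inside it. Without replicate 3 the median was -0.40 and only Meis2 passed. In limma's fit of the 6 arrays alone none passed, although all 13 had an unadjusted p under 0.05, against 1972 of all 12371 genes. With the saline arrays of days 3, 6 and 12 as controls, a choice made after seeing the data, all 13 fell, against 1643 of all 12371 genes. That comparison uses the same 3 methamphetamine arrays, replicate 3 included. In these bulk samples, fewer cells of a type and less RNA per cell cannot be told apart.

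Rgs9, on chromosome 11, encodes a regulator that shortens G protein signalling downstream of dopamine receptors. It was at 13.36, 13.84 and 10.20 on the methamphetamine arrays and 14.39, 14.53 and 14.42 on the saline arrays. Replicate 3 was more than 3 log2 units below replicates 1 and 2, which were both below all saline arrays. Rgs9 fell by 1.90 ± 0.428 (adjusted p = 0.00287), and without replicate 3 it was at -0.65 (adjusted p = 0.0579). A second Rgs9 probe had a difference of means of -1.75, beside -1.98 for the first. Within the first series of slides Rgs9 differed by -1.02 and within the second, which holds replicate 3, by -2.45.

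Ppp1r1b, which encodes DARPP-32, the phosphatase inhibitor that relays dopamine signals, was at 13.38, 14.01 and 10.63 against 14.37, 14.38 and 14.35. It fell by 1.63 ± 0.384 (adjusted p = 0.00415), and by 0.54 without replicate 3, which did not pass (adjusted p = 0.151). The homeobox gene Meis2 was at 12.60, 12.77 and 11.13 against 13.20, 13.17 and 13.36, and it lay below the 75 other arrays on all 3 methamphetamine arrays. Meis2 fell by 1.13 ± 0.220 with replicate 3 and by 0.58 without it (adjusted p = 0.0253). The retinoic acid receptor gene Rarb fell by 1.47, the GTPase gene Rasd2 by 1.15, the cyclic AMP-regulated Arpp21 by 1.08, the phosphodiesterase genes Pde10a and Pde1b by 1.06 and 0.96, and the G protein subunit gene Gng7 by 0.97. Each value is that of the gene's brightest probe, and the fall of Arpp21 was on that probe alone: its 6 other probes past the filter had differences of means between -0.085 and 0.16. Among the dimmer probes of Rarb and Gng7, 1 of each differed by -0.32 and -0.12. Bcl11b, Foxp1, Gnal and Strip2 were at -0.31, -0.57, -0.70 and -0.53 and did not pass. Replicate 3 was the lowest array for all 13 genes, and replicate 2 was the highest of the 3 for 12.

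**Figure D2:**
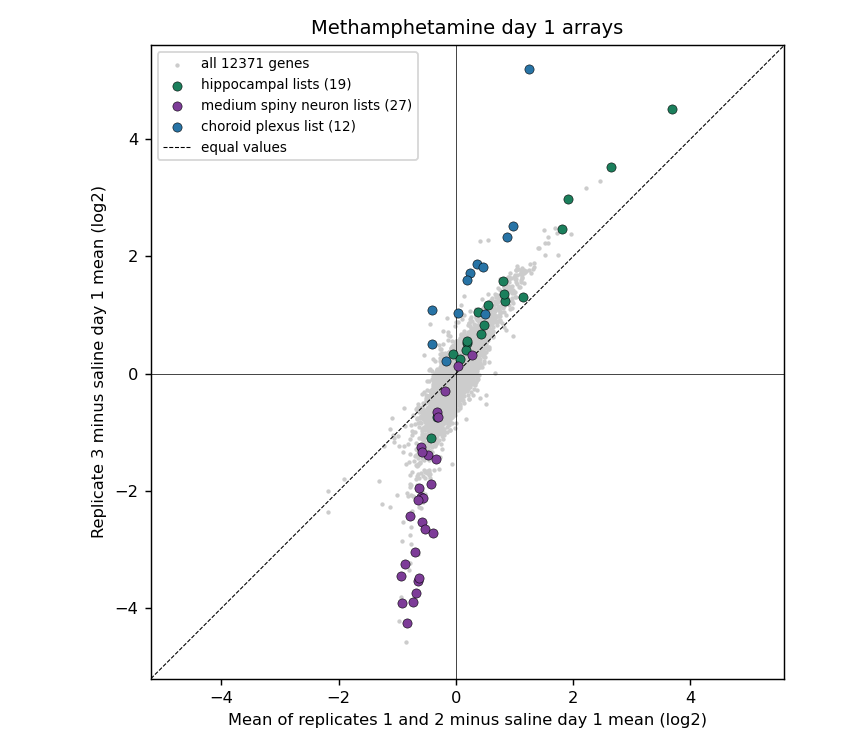
Each point is a gene, with the mean of methamphetamine replicates 1 and 2 on the x axis and replicate 3 on the y axis, both as log2 difference from the saline day 1 mean. Hippocampal genes lie near the line of equal values or somewhat above it, with C1ql2 farthest to the right, whereas medium spiny neuron genes fall steeply on the y axis and much less on the x axis, and Ttr stands highest among the choroid plexus genes.

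Direct pathway genes were lower in 5 of 8 cases and higher in none, against 3.86% and 3.36% of all genes, with a median of -1.24. Replicate 3 was the lowest array for 7. Drd1, the dopamine D1 receptor gene on chromosome 13, was at 11.52, 11.88 and 8.71 on the methamphetamine arrays and 12.63, 12.72 and 12.50 on the saline arrays. All 3 methamphetamine values were below the saline values, replicate 3 by far the most. Drd1 fell by 1.69 ± 0.398 (adjusted p = 0.00415), and was at -0.59 without replicate 3 (adjusted p = 0.175). Tac1, the substance P precursor gene, was at 11.59, 11.86 and 8.83 against 12.42, 12.29 and 12.40, and fell by 1.43 ± 0.374 (adjusted p = 0.0108). The transcription factor gene Isl1 fell by 1.69, the transporter gene Slc35d3 by 1.46 and Pdyn, the dynorphin precursor, by 1.05. Sfxn1, Ebf1 and Eya1 were at -0.20, -0.34 and 0.29 and did not pass. Without replicate 3 none of the 8 passed in limma, and the median was -0.30. An unadjusted p under 0.05 was found for 3, against 1567 of all 12371 genes. Drd1 differed by -1.11 within the first series of slides and by -2.31 within the second.

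Indirect pathway genes were lower in 5 of 6 cases, against 3.86% of all genes, with a median of -0.87. Drd2, the dopamine D2 receptor gene, was at 9.90, 10.55 and 7.72 against 11.22, 11.37 and 10.89, with no overlap and replicate 3 lowest. It fell by 1.60 ± 0.372 (adjusted p = 0.00372). Penk, the enkephalin precursor, was at 10.82, 11.42 and 8.27 against 11.08, 12.24 and 11.94, so replicate 2 lay within the saline range, and it fell by 1.52 ± 0.400 (adjusted p = 0.0113). The orphan receptor gene Gpr6 fell by 0.91, the transcription factor gene Sp9 by 0.84 and Upb1 by 0.77, while the membrane protein gene Plxdc1 was at -0.05. No probe was paired with Adora2a or Gpr52. None of the 6 passed in limma without replicate 3, with a median of -0.43. At an unadjusted p under 0.05 there were 3, against 1567 of all 12371 genes. Outside these lists the genes with large decreases led by replicate 3 were Ido1 at -1.92, Syndig1l at -1.86, the sodium channel subunit gene Scn4b at -1.81 and Lbhd2 at -1.53, and none of the 4 passed without it. A second Scn4b probe had a difference of means of -0.24.

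Of 10 striatal interneuron genes tested, 3 fell and 1 rose, against 3.86% lower and 3.36% higher over all genes. At an unadjusted p under 0.05 there were 6 lower and 2 higher, against 2421 of all 12371 genes in either direction. The 3 that fell are genes of cholinergic neurons: Chat, the acetylcholine-synthesizing enzyme, by 1.23, the choline transporter gene Slc5a7 by 0.86 and the transcription factor gene Lhx8 by 0.72. Chat was at 9.05, 8.95 and 7.03 against 9.57, 9.68 and 9.39, again with replicate 3 lowest, and none of the 3 passed without that array. The receptor tyrosine kinase gene Kit was the 1 that rose, at 10.84, 10.70 and 11.33 against 10.12, 10.00 and 10.18, by 0.96 ± 0.126 (adjusted p = 4.29e-07). Kit passed without replicate 3 too, at 0.77. The cholinergic vesicle transporter gene Slc18a3 was at -0.54 (adjusted p = 0.0674), the calretinin gene Calb2 at -1.43 (adjusted p = 0.0664) and the nitric oxide synthase gene Nos1 at 0.32, none past the threshold. The peptide genes Sst and Npy and the parvalbumin gene Pvalb were at 0.15, -0.33 and -0.13 and did not pass.

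The largest decreases of all were in genes of the olfactory bulb, which were high on saline replicates 2 and 3. Omp, the olfactory marker protein of sensory axons, was at 6.90, 7.28 and 7.27 on the methamphetamine arrays and 7.51, 10.07 and 10.23 on the saline arrays. Saline replicates 2 and 3 were higher than all the other day 1 arrays, while saline replicate 1 was close to the methamphetamine arrays. The olfactory list was added after its values were seen, so its p-values describe genes chosen for this pattern. Omp fell by 2.83 ± 0.606 (adjusted p = 0.00157) beside a difference of means of -2.12, and S100a5 by 2.99 ± 0.704 beside -2.24. The photoreceptor cadherin gene Cdhr1 fell by 2.13 ± 0.562 and Doc2g by 1.46 ± 0.377. A second Omp probe differed by -0.10. Within the first series of slides Omp differed by -0.62 and within the second by -2.88. Set against heroin day 1 in place of saline, Omp was at -0.42 (adjusted p = 0.736) and S100a5 at -0.43 (adjusted p = 0.774). Set against the saline arrays of days 3, 6 and 12, controls chosen after seeing the data, they were at -0.60 (adjusted p = 0.318) and -0.72 (adjusted p = 0.3).

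Some dopamine and hypothalamic genes, among them genes that the olfactory bulb also expresses, were lower too. Th, the rate-limiting enzyme of dopamine synthesis, was at 7.34, 7.31 and 6.80 on the methamphetamine arrays and 8.09, 8.64 and 9.15 on the saline arrays, the highest again on saline replicates 2 and 3. All 3 methamphetamine values also lay below the 75 other arrays, of which the lowest was at 7.38. Th fell by 1.74 ± 0.296 (adjusted p = 6.28e-05), against -0.67 relative to heroin day 1 (adjusted p = 0.151) and -0.72 relative to the later saline arrays (adjusted p = 0.00637). Trh, the thyrotropin-releasing hormone gene, was at 8.07, 8.60 and 7.37 against 8.87, 9.64 and 10.28 and fell by 1.94 ± 0.371, with -0.90 relative to heroin (adjusted p = 0.117) and -0.89 relative to the later saline arrays (adjusted p = 0.00727). The dopamine transporter gene Slc6a3 was at 6.81, 6.97 and 6.86 against 8.66, 7.07 and 7.55, where saline replicate 1 set the difference. Its fitted fall was 1.69 ± 0.494 (adjusted p = 0.0239) beside a difference of means of -0.88. In all, 3 of 5 midbrain dopamine genes fell against saline, the third being Ddc by 0.70, and none against heroin. Over all genes 3.86% fell against saline. Of 9 hypothalamic genes Trh and Nkx2-1 (by 0.78) fell, and no thalamic or cerebellar gene passed in limma. At an unadjusted p under 0.05 there were 3 of 10 and 0 of 2, against 2421 of all 12371 genes. The part of olfactory tissue in the values of Th and Trh was not tested.

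**Figure D3:**
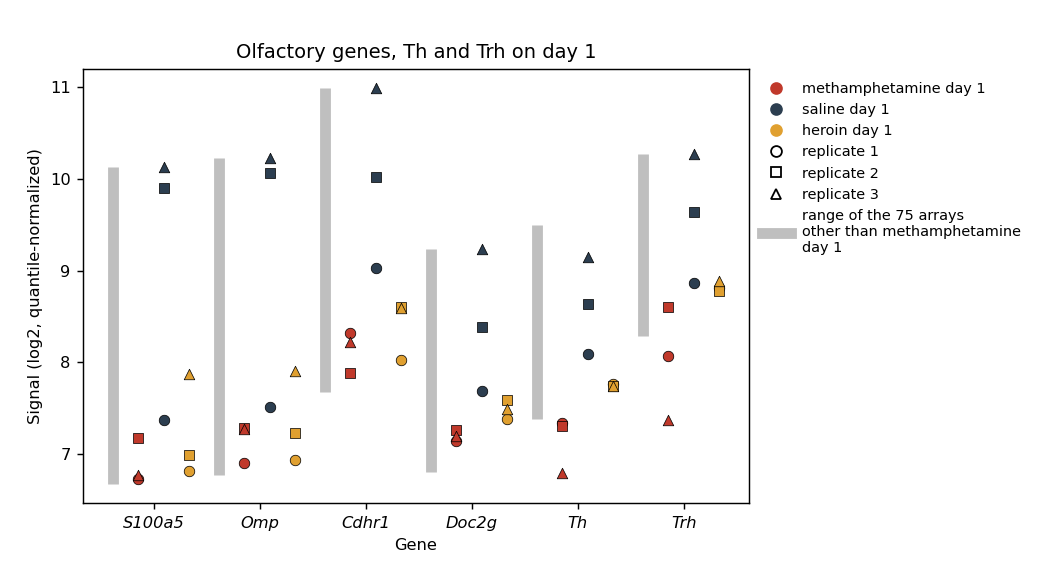
Log2 quantile-normalized signal of 4 olfactory genes, Th and Trh on each day 1 array, with symbols as replicates and the grey bar as the range of the 75 arrays outside the methamphetamine day 1 group. Saline replicate 3 stands at the top of the grey bar for the 4 olfactory genes. Saline replicate 2 stands near the top for Omp and S100a5 and clearly below it, in the upper part of the bar, for Cdhr1 and Doc2g. The methamphetamine and heroin arrays lie in the lower part of the bar for these genes.

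Choroid plexus genes, from the tissue that secretes cerebrospinal fluid in the ventricles, differed widely among the 3 methamphetamine arrays. Ttr, the transthyretin gene, was at 8.59, 14.99 and 15.73 under methamphetamine, 10.47, 10.77 and 10.38 under saline and 13.70, 12.24 and 13.09 under heroin. Methamphetamine replicate 1 was below and replicates 2 and 3 far above the saline arrays, and the fitted change was 1.02 ± 2.27 (adjusted p = 0.865) beside a difference of means of 2.56. None of the 12 genes tested passed in limma, and 1 had an unadjusted p under 0.05, against 2421 of all 12371 genes. In 4 of the 12 all 3 methamphetamine arrays lay above all 3 saline arrays, against 10.4% of all genes. All 12 were lowest on replicate 1 and highest on replicate 3, and the list mean was -0.22, 0.87 and 1.74, with the other 75 arrays between -0.31 and 1.87. The order of the arrays for these genes, replicate 1 below 2 below 3, differed from that for the hippocampal genes, in which replicate 2 was lowest.

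**Figure D4:**
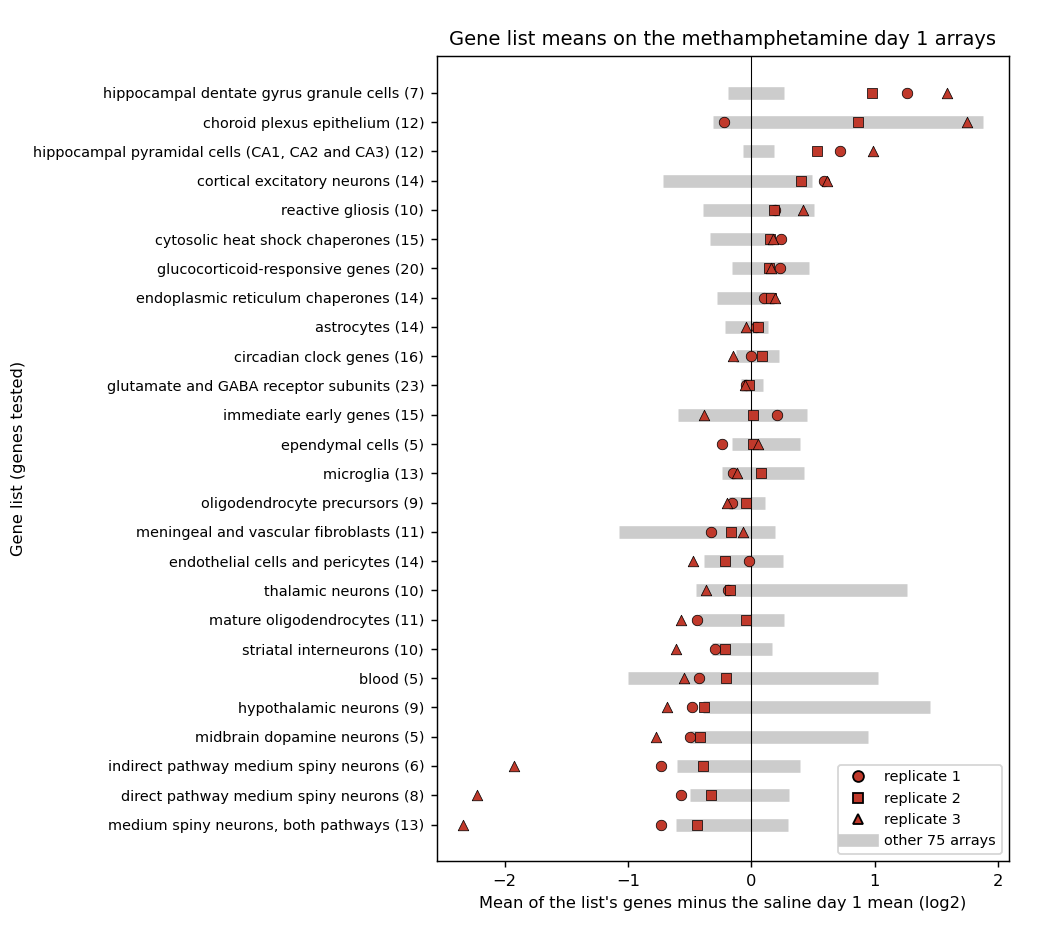
Mean log2 difference from the saline day 1 mean for the genes of each list on the 3 methamphetamine day 1 arrays, with the grey bar as the range of the same mean over the other 75 arrays. The points of both hippocampal lists lie to the right of their bars and replicate 3 lies far to the left of its bar for the 3 medium spiny neuron lists, while most other lists lie within or close to their bars. The hippocampal lists include Lct and Iyd, which passed the filter only through the methamphetamine arrays.

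Of 10 reactive gliosis genes 3 rose and none fell, with a median change of 0.16. In 3 of the 10 all 3 methamphetamine arrays lay above all 3 saline arrays and in 2 below, against 10.4% and 12.1% of all genes. Over all genes 3.36% were higher and 3.86% lower, and 2421 of 12371 had an unadjusted p under 0.05 in limma. Gfap, the intermediate filament gene of astrocytes, was at 11.90, 11.89 and 12.36 on the methamphetamine arrays and 10.78, 11.04 and 10.96 on the saline arrays. All 3 lay above all saline arrays, and Gfap rose by 1.16 ± 0.202 (adjusted p = 9.51e-05). Serpina3n, a protease inhibitor gene of reactive astrocytes, was at 10.67, 10.48 and 11.37 against 9.47, 9.54 and 9.59, above the other 75 arrays, and rose by 1.15 ± 0.164 (adjusted p = 2.66e-06). The hyaluronan receptor gene Cd44 rose by 0.35. Both Gfap and Serpina3n still passed without replicate 3, and Cd44 did not. Of 14 astrocyte genes the glutamate transporter gene Slc1a2 rose by 0.37 and the GABA transporter gene Slc6a11 fell by 0.74. Of 11 mature oligodendrocyte genes the myelin gene Mag fell by 0.46 and none rose, while 7 were lower at an unadjusted p under 0.05 and the median was -0.36. The oligodendrocyte list mean was -0.44, -0.05 and -0.57 on replicates 1, 2 and 3, with replicates 1 and 3 below the lowest of the other 75 arrays, at -0.42. Of 14 vascular cell genes Itm2a fell by 0.46. Single genes past the threshold, as in the oligodendrocyte and vascular lists, are close to the share over all genes. No microglial, oligodendrocyte precursor, ependymal, fibroblast or blood gene passed in limma. At an unadjusted p under 0.05 there were 2 of 9 precursor genes and 2 of 11 fibroblast genes, near the share over all genes, and none of the others. The list means of these cells lay within or near the range of the other arrays.

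Genes induced by neuronal activity showed no common direction. For the counts below, 3.36% of all genes were higher and 3.86% lower, and 2421 of 12371 had an unadjusted p under 0.05 in limma. Jun was the 1 of 15 immediate early genes that rose, at 9.60, 9.28 and 10.03 against 8.63, 8.48 and 8.60, above all 75 other arrays, by 1.05 ± 0.148 (adjusted p = 1.6e-06). The scaffold gene Homer1 fell by 0.41 (adjusted p = 0.0468). At an unadjusted p under 0.05 in limma, 4 of the 15 were lower and 2 higher, and the list median was -0.28. Replicate 3 was the lowest array for 12, and the list mean was 0.21, 0.01 and -0.38 on replicates 1, 2 and 3. Npas4, Egr2, Egr4 and Fosb were at -0.72, -0.61, -0.39 and -0.39 and Fosl2 at 0.57, none past the threshold. The fitted changes of Fos, Arc and Egr1 were -0.21, 0.27 and -0.35 and did not pass. Fos was at 9.94, 9.30 and 8.96 against 9.75, 9.004 and 9.41, with the groups overlapping. Of 20 glucocorticoid-responsive genes 3 rose and 1 fell: the transcription factor gene Zbtb16 by 0.79 ± 0.135, the receptor co-chaperone gene Fkbp5 by 0.49 ± 0.120, the feedback inhibitor gene Errfi1 by 0.35 ± 0.105 and the cell cycle inhibitor gene Cdkn1a by -0.65 ± 0.186. Of these Zbtb16 alone passed without replicate 3. Plin4 and Sgk1 were at -0.02 and 0.24, and Ciart and Hif3a at -0.04 and 0.45, none past the threshold. No clock gene and no endoplasmic reticulum chaperone gene passed in limma, with 2 of 16 and 3 of 14 at an unadjusted p under 0.05, and of 15 heat shock genes Hspa1b rose by 0.41, beside a difference of means of 0.24.

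Receptor subunits moved in both directions, 4 of 23 higher and 2 lower, against 3.36% and 3.86% of all genes. The NMDA receptor genes Grin2a and Grin2b rose by 0.86 ± 0.137 and 0.36 ± 0.0887, the AMPA receptor gene Gria1 by 0.51 ± 0.0928 and the GABA-A receptor gene Gabrb1 by 0.41 ± 0.109. The metabotropic glutamate receptor gene Grm4 fell by 1.04 ± 0.175 and the GABA-A receptor gene Gabrd by 0.90 ± 0.205. Grin2a was at 9.01, 8.47 and 9.06 against 8.23, 8.12 and 8.17, with replicate 2 the nearest to saline. Grin2a, Gria1 and Grm4 passed without replicate 3, and Grin2b, Gabrb1 and Gabrd did not.

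Against heroin on the same day, 1013 genes (8.19%) passed, 495 higher (4%) and 518 lower (4.19%). Dentate gyrus genes were higher in 6 of 7 cases and lower in 1, and pyramidal cell genes higher in 6 of 12, with Lct and Iyd included. Medium spiny neuron genes of both pathways were lower in 12 of 13. C1ql2 was at 8.75, 8.29 and 8.20 on the heroin arrays and Rgs9 at 14.47, 14.55 and 14.56, both close to the saline values. The methamphetamine minus heroin difference was 3.54 for C1ql2 and -1.96 for Rgs9. Both comparisons rest on the same 3 methamphetamine arrays.

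The later treatment days did not repeat the pattern. With separate saline arrays for each day, 416 genes were higher and 478 lower on day 1, none on day 3, 7 higher on day 6 (0.0566%) and 3 higher on day 12 (0.0243%). On day 3 limma gave 458 genes at an unadjusted p under 0.05, against 2421 on day 1. The median of the dentate gyrus list, Lct included, was 0.93 on day 1 and -0.08, -0.03 and 0.02 on days 3, 6 and 12. That of the medium spiny neuron list was -1.06 on day 1 and 0.08, -0.01 and -0.12 later. The day 1 effect differed from the mean effect of the later days for 381 genes (3.08%), 205 in the higher (1.66%) and 176 in the lower direction (1.42%). The difference was 3.80 ± 0.373 for C1ql2, 2.30 ± 0.262 for Spink8 and 2.08 ± 0.193 for Fibcd1. It was -1.82 ± 0.540 for Rgs9 and -1.76 ± 0.502 for Drd1. Spink8 had effects of 0.22, 0.57 and 0.79 on days 3, 6 and 12, none past the threshold. Plin4, which coats lipid droplets, had effects of 0.39, 1.34 and 1.66 on the later days, and Ciart, a clock repressor gene, 0.67, 0.86 and 0.89, so that their day 1 effects differed by -1.15 (adjusted p = 0.0423) and -0.85 (adjusted p = 0.00291). Gfap had a day 6 effect of 1.58, larger than on day 1, and its day 1 effect did not pass the test against the later mean (adjusted p = 0.242).

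**Figure D5:**
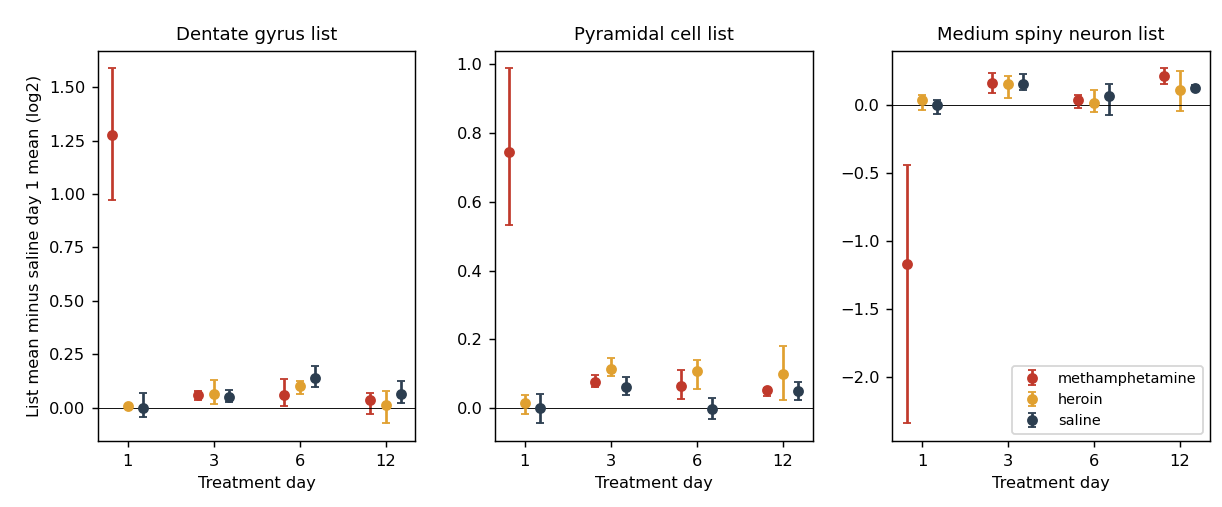
Mean of the dentate gyrus, pyramidal cell and medium spiny neuron lists as log2 difference from the saline day 1 mean, by treatment day and drug, with points as means of 3 arrays and bars from the lowest to the highest array. Methamphetamine day 1 is above every other group for both hippocampal lists and below for medium spiny neurons, where its bar runs from -0.44 to -2.34, while all other groups stay close to 0. The hippocampal lists include Lct and Iyd, which passed the filter only through the methamphetamine day 1 arrays.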

How the data were processed

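Striatal RNA of 78 samples was measured on Illumina mouse bead arrays. The authors deposited a table of probe signals, linear intensity values with no detection p-values, and a processed table of log2 values. How either was background-corrected is not given in the sources used here. All columns were mapped to samples by their names, and slides were read from the array names.

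The 45281 signals were quantile-normalized and put on the log2 scale. Kept were the probes that exceeded the median signal (percentile 50) on every array of 1 or more of the 25 groups. Of all probes, 34885 have 1 symbol in the platform annotation, 18 several and 10378 none. The highest-mean probe stood for each symbol, leaving 12371 genes. One model of group means plus slides was fitted with limma 3.58.1 in R 4.3.3, with p-values adjusted by Benjamini and Hochberg's method across the genes and 0.05 as the threshold. With 3 arrays against 3, an exact permutation test of a single value cannot go below 0.1, so none was used. The number of arrays limits the precision.

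Members and the 27 gene lists (362 genes) were chosen with earlier results of these data known. Genes named are the 6 markers, the called genes with separate groups that changed most (15 a direction at most), up to 8 members a list by smallest p, up to 6 per direction by the day difference or by 1 array's distance from the other two, and 20 set genes. The olfactory list was added after its values were seen. A list member is not reported here. The scripts were tested on simulated data. Alternatives covered normalization, normexp (offset 50), filters (none, stricter at percentile 60), probes, slide terms, weights, controls, blocks, left-out arrays and the processed table.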

Additional observations from a re-analysis of the deposited data

Results flagged for a closer look

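The methamphetamine effect on day 1 differed from its mean effect on days 3, 6 and 12, each against saline of the same day, for 381 genes. The difference of the effects was tested within the model of all 78 arrays, and values are log2 differences of day 1 minus the later mean. Among hippocampal and other genes higher on day 1 it was 3.80 for C1ql2, 2.74 for Grp, 2.32 for Slc26a4, 2.30 for Spink8 and 2.08 for Fibcd1. For Lct, which lay below the array median on the saline day 1 arrays, the fitted 2.41 is set against values near background. Among genes of medium spiny neurons and those that fell with them it was -1.89 for Syndig1l, -1.82 for Rgs9 and -1.76 for Drd1. Genes high on saline day 1 arrays gave -3.61 for S100a5, -3.28 for Omp, -2.50 for Slc6a3, -2.23 for Trh and -2.22 for Th. Of these Th was also below the 75 other arrays on all 3 methamphetamine arrays. Plin4 and Ciart, with effects on the later days and none past the threshold on day 1, gave -1.15 and -0.85. Without methamphetamine day 1 replicate 3 the count was 88.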

How the results depend on the processing

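The count of 894 genes for methamphetamine against saline on day 1 stayed within 1.5 times under median centring (693), normexp background correction (883), no signal filter (783), a filter on the other 24 groups (865), a stricter filter (925), every probe (956), no slide term (1219), robust trended variances (896) and array weights (1311). It was 1417 with the slide as a random block, 1402 with the slide number series in place of the slide, 373 on the second number series alone and 96 with only the 6 arrays. With controls chosen after seeing the data it was 2743 against all saline treatment arrays and 3055 against the saline arrays of days 3, 6 and 12. The 381 genes of the day difference became 975 without the slide term, 895 with the random block, 1109 with the number series, 147 on the second series alone and 660 with array weights. The 1013 genes of the heroin comparison became 509 on the second series alone, 1759 with array weights and 458 with only the 6 arrays. Leaving out 1 array gave 230 to 1353 genes against saline, 88 to 792 for the day difference and 346 to 1533 against heroin. The lowest count came each time without methamphetamine replicate 3 and the highest without replicate 2. Leaving out methamphetamine day 6 replicate 3 gave 245 for the day difference, and leaving out heroin replicate 3 gave 525. The cause of these movements was not tested.

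Deviations of arrays with the same replicate number correlated at 0.311, 0.242 and 0.0907 over 12371 genes, all of them positive. The main model did not take the numbers as pairs, and these values do not settle whether they are. With the replicate number as a block the count against saline was 1033, and 329 with only the 6 arrays, beside 894 and 96 without the block.

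In the authors' processed log2 values without the averaged column, all 3 counts were 0 in limma, with 591, 560 and 536 genes at an unadjusted p under 0.05. The alternatives were followed for 78 of the genes named in the text that had passed against saline, Pde10a and Doc2g not among them. In the processed values 43 of the 78 had the opposite sign and 35 the same sign without passing. Under the other alternatives none of the 78 reversed. Genes called lower in the signals were in the processed values at Drd1 0.16, Rgs9 0.11, Ido1 0.24, Syndig1l 0.090, Scn4b 0.21, Isl1 0.19, Ppp1r1b 0.13, Drd2 0.13, Gsg1l 0.047, Gng7 0.037, Arpp21 0.065, Rarb 0.17, Rasd2 0.10, Pde1b 0.063, Slc35d3 0.12, Tac1 0.24, Pdyn 0.21, Upb1 0.035, Penk 0.27, Gpr6 0.15, Chat 0.041, Slc5a7 0.12, Lhx8 0.081, Nkx2-1 0.11, Homer1 0.011 and Gabrd 0.087. Genes called higher were at Grp -0.029, Slc26a4 -0.081, Pcdh20 -0.12, Chrd -0.039, Tnfrsf25 -0.0096, Il16 -0.041, Tanc1 -0.072, C1ql3 -0.029, Cabp7 -0.0041, Grik4 -0.015, Fezf2 -0.23, Slc1a2 -0.0035, Serpina3n -0.037, Gfap -0.045, Jun -0.033, Errfi1 -0.0035 and Grin2b -0.012. Without replicate 3, 44 of the 78 lost their call, with only the 6 arrays 58, on the second series alone 27 and under median centring 13.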

Other observations

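The 3 methamphetamine arrays differed among themselves in other genes as well, given here as a description. Replicate 1 stood farthest above the mean of the other two in 2900060B14Rik, Isl1, Rgs9, Ido1, Scn4b and Tac1, although for all of these but 2900060B14Rik it lay below replicate 2 and the low value of replicate 3 set the distance. It stood farthest below in Ttr, Ecrg4, 4933411G06Rik, ND6, Folr1 and Wfdc2. Replicate 2 stood farthest below the others' mean in C2cd4a, Lct, Pcdh20, Kctd4, Iqgap2 and Rasef. Replicate 3 stood farthest above it in Ttr, Ecrg4, Wfdc2, Kl, Folr1 and Aqp1, of which Ttr, Kl, Folr1 and Aqp1 are choroid plexus genes. At 1 log2 unit or more above the saline mean, replicates 1 and 2 shared 30 genes of 83 and 36.

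The deviations of each array from the mean of all arrays, compared between the signals and the authors' processed table, correlated across genes at 0.300, 0.108 and -0.0851 on methamphetamine replicates 1, 2 and 3. On the saline day 1 arrays the correlations were 0.833, 0.765 and 0.806, and on the 69 arrays outside day 1 they ran from 0.393 to 0.857 with a median of 0.688. Genes are not independent replicates, and no test was made.

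Omp, S100a5, Cdhr1, Doc2g, Th and Trh were averaged as the deviation from their mean over all arrays. This average was 2.12 and 1.56 on saline day 1 replicates 3 and 2. It was 1.85 on methamphetamine withdrawal day 15 replicate 1 and 1.49 on saline day 24 replicate 2.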
